A study of Mus musculus with 6 samples.

Results

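In neural stem and progenitor cells kept in water, 910 of 13221 H3K4me3 peaks (6.88%, 95% interval 6.46 to 7.33) lay on H3K27me3. They were chosen by measured peak positions, as the peaks of the water H3K4me3 list that shared at least 1 bp with a peak of the water H3K27me3 list, and they are called bivalent peaks below. The other 12311 water H3K4me3 peaks serve for comparison. The cells came from the forebrain of mouse embryos at E13.5, were grown with EGF and FGF to passage 2 or 3, and were then exposed for 24 h to 10 mM crotonate or to water. The assay was CUT&Tag: an antibody against the mark brings a transposase to it, which inserts sequencing adapters into the DNA nearby. There was 1 library for each mark and treatment, so differences have no replicate check and carry no p-value. Both IgG samples (2) were left aside. Intervals are exact Clopper-Pearson 95% intervals and cover counting error only. No depth is stated for any library. The crotonate lists were longer than the water lists, with 16007 against 13221 peaks for H3K4me3 and 15879 against 7643 for H3K27me3, and both the presence and the width of a peak depend on depth. Of 10 marker genes of neural stem and progenitor cells, 9 carried H3K4me3 after crotonate and 8 in water, where Msi1 and Pax6 had no peak at their annotated starts. Markers of other cell types with H3K4me3 numbered 4 of 6 for neurons with both treatments, 5 of 6 after crotonate and 4 of 6 in water for the oligodendrocyte lineage, 1 of 4 for astrocytes and 1 of 3 for endothelium with both, 1 of 3 after crotonate and 0 of 3 in water for fibroblasts, and 0 of 4 for microglia with both. Of all these markers, Pdgfra of the oligodendrocyte lineage had a bivalent peak.

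H3K4me3 is placed at promoters, mostly those rich in CpG, by the Set1 and MLL methyltransferases. H3K27me3 is placed by the Polycomb repressive complex PRC2 over silent developmental genes and is read by PRC1. Promoters that hold both marks are called bivalent, a state described in embryonic stem cells and neural progenitors at genes that are silent or weakly transcribed and can later resolve to either mark. In a culture of many cells, both marks on 1 allele and a mixture of cells with 1 mark each cannot be told apart.

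The DNA before 4 starts shows the range of promoters found in bivalent peaks. Each line gives the 250 bases before an annotated start in GRCm38.p6, from RefSeq, on the strand of the gene, with CpG in capitals. Dlx1, a homeobox gene of ventral forebrain neurons, is at chr2:71529195-71529444 on the plus strand and has 22 CpG. Eomes, the gene of a T-box factor of intermediate progenitors, is at chr9:118477939-118478188 on the plus strand and is CpG-poor, with 8. Wnt9a, encoding a Wnt ligand, is at chr11:59306680-59306929 on the plus strand and has 48. Mycn, encoding a Myc family factor that drives progenitor proliferation, is at chr12:12941837-12942086 on the minus strand and has 11. The first 3 starts lay under H3K27me3 with both treatments. That of Mycn lay outside it with both, although its bivalent peak held H3K27me3 in water.
Dlx1: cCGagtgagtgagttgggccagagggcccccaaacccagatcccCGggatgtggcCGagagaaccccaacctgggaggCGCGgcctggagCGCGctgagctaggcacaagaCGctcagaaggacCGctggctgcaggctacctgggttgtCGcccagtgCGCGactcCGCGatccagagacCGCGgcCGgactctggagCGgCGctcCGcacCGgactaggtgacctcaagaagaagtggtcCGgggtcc
Eomes: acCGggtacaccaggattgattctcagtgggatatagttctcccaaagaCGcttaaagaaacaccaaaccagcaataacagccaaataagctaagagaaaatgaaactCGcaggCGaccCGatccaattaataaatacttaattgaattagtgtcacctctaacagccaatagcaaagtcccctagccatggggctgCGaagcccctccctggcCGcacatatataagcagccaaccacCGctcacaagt
Wnt9a: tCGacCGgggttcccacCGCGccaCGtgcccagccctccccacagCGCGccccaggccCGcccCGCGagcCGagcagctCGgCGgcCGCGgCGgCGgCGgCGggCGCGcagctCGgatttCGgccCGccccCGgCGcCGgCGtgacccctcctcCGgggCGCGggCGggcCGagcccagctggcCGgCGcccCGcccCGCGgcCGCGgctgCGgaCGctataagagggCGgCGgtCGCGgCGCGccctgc
Mycn: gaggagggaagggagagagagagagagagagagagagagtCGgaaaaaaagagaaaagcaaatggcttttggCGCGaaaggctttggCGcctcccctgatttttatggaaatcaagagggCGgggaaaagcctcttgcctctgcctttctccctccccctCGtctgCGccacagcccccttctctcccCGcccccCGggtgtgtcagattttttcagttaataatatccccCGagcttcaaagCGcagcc

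Starts inside bivalent peaks were the richest in CpG of the classes compared. The 451 such starts of 406 genes had a median of 21 CpG in these 250 bases, against 18 at 10154 starts with H3K4me3 alone, 12 at 851 with H3K27me3 alone and 3 at 9807 with neither mark. At least 15 CpG were present at 74.1% of starts in bivalent peaks (334 of 451), 64.5% with H3K4me3 alone, 39.0% with H3K27me3 alone, 5.88% with neither mark and 36.7% of all 21263 starts. Median GC content was 66.8% in bivalent peaks and 61.6%, 60.8% and 48.0% in the other 3 classes, in the same order. The motif TATAAA, searched on both strands and so also as TTTATA, occurred before 4.66% of starts in bivalent peaks (21 of 451), close to the 4.96% with H3K4me3 alone, and before 10.3% with H3K27me3 alone, 19.0% with neither mark and 11.6% of all starts. CpG content did not separate the bivalent peaks by what followed: the median was 21 at 49 starts whose peak held no H3K27me3 after crotonate and 20.5 at 402 whose peak did.

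**Figure D1:**
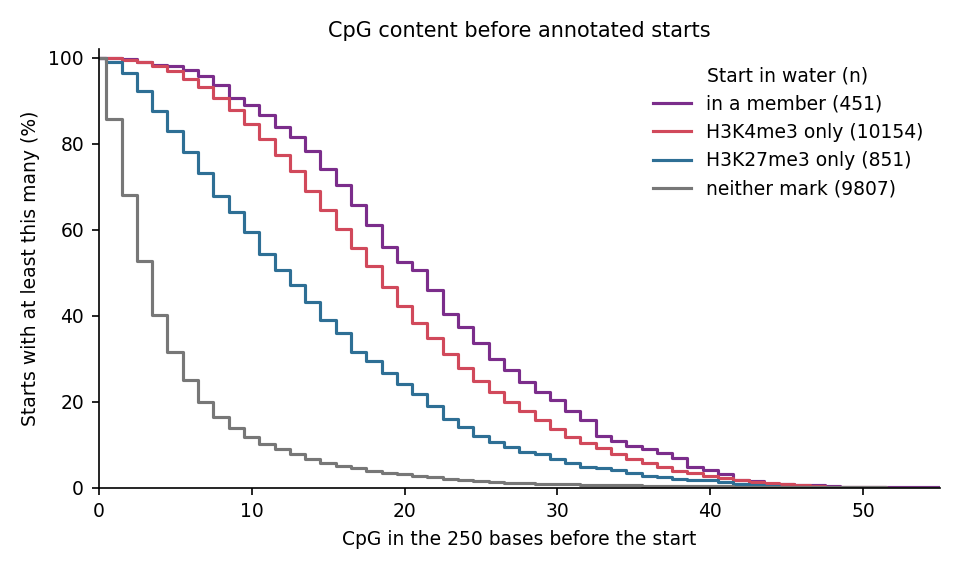
Share of annotated starts (y axis, percent) with at least the number of CpG on the x axis in the 250 bases before the start. Starts are classed in water as inside a bivalent peak, or with H3K4me3 alone, H3K27me3 alone or neither mark. A start inside a bivalent peak need not itself lie under H3K27me3. The line of starts in bivalent peaks lies highest over most of the axis, above H3K4me3 alone, H3K27me3 alone and neither mark.

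H3K4me3 peaks on H3K27me3 were short and weak within their own list. Their median length was 991 bp and the authors' median fold enrichment 7.95, against 1545 bp and 14.7 for the other H3K4me3 peaks. The H3K27me3 peaks beneath them stood out the other way: the 897 that held a bivalent peak had a median length of 2737 bp and a median fold enrichment of 8.64, against 989 bp and 5.09 for the other 6746. These values come from the lists that chose the peaks and are a description. Of the 897, 854 held 1 H3K4me3 peak, 41 held 2 and 2 held 3. At the threshold of the rule, the shortest overlaps were 3 bp at Syt10, 8 bp at Slc6a17 and 9 bp at Slc11a2, and the closest peaks left out were 4 bp from H3K27me3 at Gpc5, 11 bp at Tmem266 and 14 bp at Stk26. Only 17 bivalent peaks had an overlap under 100 bp.

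The marks lay to each other in 3 main ways in water. Most often a short H3K4me3 peak sat wholly inside a longer H3K27me3 peak, as in 505 of 910 cases (55.5%, 52.2 to 58.8), where the median H3K4me3 peak was 768 bp and the median H3K27me3 peak 4891 bp. In 311 (34.2%) an H3K4me3 peak of median 1262 bp crossed the edge of an H3K27me3 peak of 1666 bp. In 63 (6.92%) a small H3K27me3 peak, of median 596 bp, lay within an H3K4me3 peak of 1459 bp. The last 31 (3.41%) touched several H3K27me3 peaks. Strength differed by arrangement: the median −log10 q of H3K4me3 was 7.75 inside H3K27me3, 17.5 at an edge and 28.6 where H3K4me3 enclosed it. The arrangement depends on H3K4me3 length, and short H3K4me3 peaks were weak outside H3K27me3 too. Among other H3K4me3 peaks the median pileup in water was 15.1 in the narrowest of 5 bins of width and 53.5 in the widest. The part of length in the order of strengths was not tested. The strongest position of H3K4me3, its summit, was under H3K27me3 in 690 peaks after crotonate (75.8%, 72.9 to 78.6) and in 735 in water (80.8%, 78.1 to 83.3). The rule required overlap in water and not after crotonate, so it favours the water value in this and all later comparisons of cover at the bivalent peaks.

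Around gene starts both marks lay mainly downstream. Of the bivalent peaks, 388 contained annotated starts of 1 strand only. In water their H3K4me3 reached a median of 363.5 bp upstream and 749 bp downstream, against 446 and 1131 bp at 7277 other H3K4me3 peaks with such starts. The H3K4me3 summit lay downstream of the start in 72.9% of them (68.2 to 77.3) and in 84.1% of the others (83.3 to 85.0). Among 372 with a single H3K27me3 peak, the H3K27me3 summit was at a median of 415.5 bp downstream of the start, and in 66.9% (61.9 to 71.7) it was farther downstream than the H3K4me3 summit. At 597 H3K27me3 peaks without H3K4me3 that hold a start, the H3K27me3 summit was at 387 bp, so this position was not particular to bivalent peaks. Where H3K4me3 crossed a domain edge, the H3K27me3 was on the downstream side in 101 of 152 cases (66.4%, 58.3 to 73.9) and on the upstream side in 51.

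After crotonate the H3K27me3 around these 388 starts was found over a broader stretch. At the start itself, where the choice by overlap in water bears on the values, it covered 65.5% after crotonate and 70.6% in water. At 2 kb upstream it was present at 46.4% after crotonate and 34.3% in water, and at 2 kb downstream at 55.4% and 47.7%. H3K4me3 spread over a smaller distance: at 1 kb downstream it was present at 60.1% after crotonate and 34.8% in water, and at 1 kb upstream at 20.1% and 11.9%.

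**Figure D2:**
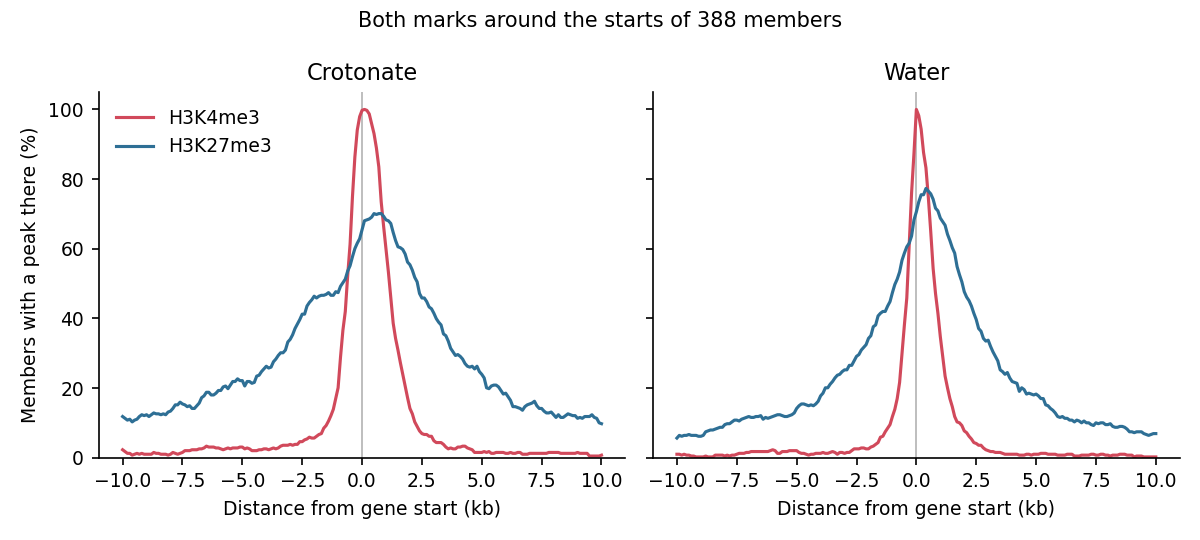
Share of 388 bivalent peaks (y axis, percent) with a peak of each mark at each distance from the gene start (x axis, kb, positive downstream), after crotonate on the left and in water on the right. H3K27me3 reaches 70.1% at 0.5 kb after crotonate and 77.3% at 0.4 kb in water, and its flanks are higher after crotonate.

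All but 1 of the bivalent peaks were found in the H3K4me3 list after crotonate: 909 of 910 (99.9%, 99.4 to 100.0), against 12220 of 12311 other H3K4me3 peaks (99.3%, 99.1 to 99.4). Over all water H3K4me3 peaks, 0.696% were not found. The 1 that was not found was a weak peak inside Arid3b, at chr9:57831372-57831887, where the H3K27me3 peak measured 1.55 kb after crotonate and 5.96 kb in water. Its cover after crotonate was 0% at a fold enrichment of at least 5 and with lists of equal length. With lists of equal length, 96.3% of bivalent peaks were found.

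Bivalent H3K4me3 peaks were wider after crotonate, and by a larger factor than other H3K4me3 peaks. Where a water peak and a crotonate peak matched 1 to 1, 829 bivalent peaks had a median of 1596 bp after crotonate and 1029 bp in water, and 11264 others 1994 and 1571.5 bp. The median ratio of widths, crotonate over water, was 1.48 for bivalent peaks (middle 50% of peaks 1.21 to 1.91) and 1.23 for the others (1.11 to 1.45). Wider peaks made up 96.5% of the bivalent pairs (800 of 829), close to the 94.5% of all pairs. The ratio was largest for narrow peaks in both classes. Water width sets these bins and also divides the ratio, so a fall over the bins is partly built in. Only the 2 classes within a bin can be set side by side. In the narrowest of 5 equal bins of water width the ratio was 1.91 for bivalent and 1.56 for other peaks, in the middle bin 1.32 and 1.23, and in the widest bin 1.15 and 1.14. By water pileup, which is the number of fragments over the summit scaled by the authors' caller, the gap was largest in the lowest bin of 5, with 1.67 for 545 bivalent and 1.49 for 1900 other peaks. In the second bin the ratios were 1.28 and 1.26, and in the third 1.18 and 1.21. The part of the difference that peak strength and depth account for was not tested further.

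**Figure D3:**
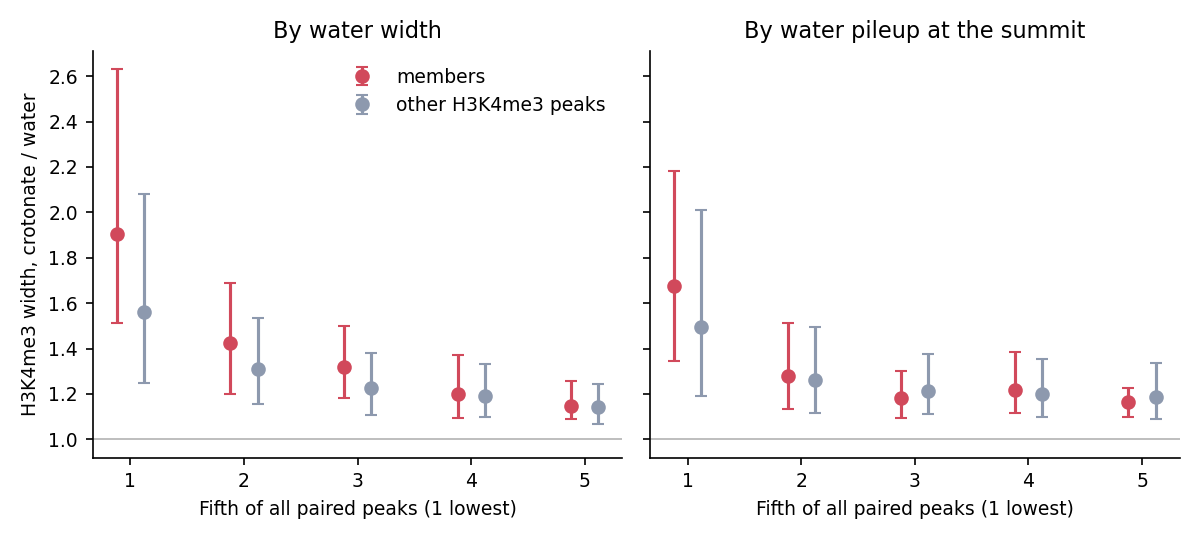
Median H3K4me3 width after crotonate over that in water (y axis, no unit) for bivalent and other peaks, in 5 equal bins of water width (left) and of water pileup (right); bars span the middle 50% of peaks. Ratios reach 1.91 for bivalent peaks in the narrowest bin and come together in the higher bins.

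Within each list, the bivalent peaks stood nearer to the other H3K4me3 peaks after crotonate. Their median pileup was 51.2% of that of the others in the crotonate list (34.2 and 66.8) and 36.5% in the water list (15.9 and 43.4). Weak peaks rose by a larger factor outside H3K27me3 too. Water pileup sets the bins below and is itself compared, so a larger rise in the lowest bin is partly built in. Among other peaks, the median was 24.55 after crotonate and 13.25 in water in the lowest of 5 bins of water pileup. In the highest it was 96.99 and 65.49. Bivalent peaks had 27.37 and 11.69 in the lowest bin. In the third they had 66.405 and 40.8, against 64.79 and 42.1. In the fourth the values were 77.67 and 50.93, against 78.08 and 51.97. The part of strength in the nearer standing was not tested. The 6 bivalent peaks with the largest width ratios lay inside or almost inside H3K27me3. Pou4f2, the gene of a POU factor of retinal ganglion cells, had an H3K4me3 peak of 3.20 kb after crotonate and 0.348 kb in water, in an H3K27me3 domain of 23.5 kb after crotonate and 22.6 kb in water. At Jph3, a junctophilin gene of neurons, H3K4me3 measured 3.58 kb after crotonate and 0.511 kb in water. H2-Ab1, which encodes a chain of MHC class II, had 2.00 and 0.305 kb, and the G protein-coupled receptor gene Gpr12 had 1.70 and 0.284 kb. Csmd3 and Plppr3 were the others, at ratios of 6.28 and 6.23. All 6 water peaks were 100% under H3K27me3 after crotonate, although at Csmd3 that rested on a crotonate H3K27me3 peak with a fold enrichment below 5. The smallest ratios were 0.606 in Kcnj12, an inward rectifier gene, 0.680 at Insm2, a zinc finger gene, 0.726 at Pom121l2, 0.811 in Rph3al, 0.827 at Misp3 and 0.861 at Sfn. Insm2 and Pom121l2 were also 100% under H3K27me3 after crotonate. Cover was 0% in Kcnj12, 80.5% in Rph3al, 69.4% at Misp3 and 34.8% at Sfn. In Rph3al and at Misp3 it rested on H3K27me3 below a fold enrichment of 5. Of all bivalent peaks, 53.4% were wholly covered after crotonate.

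H3K27me3 was found after crotonate at 815 of the 910 (89.6%, 87.4 to 91.5) and was absent from 95 (10.4%). Counted as H3K27me3 peaks, 89 of the 897 under bivalent peaks and 545 of 6746 others had no crotonate counterpart, against 8.3% of the whole list. Coverage moved in both directions. Every base of the H3K4me3 peak lay under H3K27me3 in 486 cases after crotonate (53.4%) and 505 in water (55.5%), the mean covered share was 73.8% after crotonate and 79.8% in water, and coverage was larger after crotonate in 178, smaller in 304 and equal in 428. In 74 of the 95 the water H3K27me3 peak overlapped no crotonate H3K27me3 peak at all. In the other 21 the domain remained beside the H3K4me3 peak and no longer reached it.

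Whether H3K27me3 was found went with its length and with how the marks lay. These 2 were not separated. The median H3K27me3 peak in water was 4891 bp where it held the H3K4me3 peak, 1666 bp at an edge and 596 bp where H3K4me3 enclosed it. After crotonate H3K27me3 was absent from 8 of 505 peaks that lay inside it in water (1.58%, 0.686 to 3.10), 59 of 311 at an edge (19.0%, 14.8 to 23.8) and 21 of 63 that enclosed it (33.3%, 22.0 to 46.3). By length of the H3K27me3 peak it was absent from 58 of 166 under 1 kb (34.9%), 23 of 153 of 1 to 2 kb, 12 of 308 of 2 to 5 kb (3.90%) and 2 of 182 of 5 to 10 kb. It was absent from 0 of 101 bivalent peaks in domains over 10 kb, which allows a share of up to 2.97% (3 of 101).

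Short H3K27me3 peaks were found less often under a bivalent H3K4me3 peak than elsewhere. Of water H3K27me3 peaks under 1 kb, 118 of 185 that touched H3K4me3 were found after crotonate (63.8%, 56.4 to 70.7), against 2886 of 3399 others (84.9%, 83.7 to 86.1). At 1 to 2 kb the shares were 89.0% (83.1 to 93.3) and 97.9% (97.0 to 98.6), and from 5 kb on both were 100%. Found here means an overlap of at least 1 bp, which a longer peak meets more easily, so it does not mean kept whole. Over all lengths they were 90.1% and 91.9%, against 91.7% for the whole list, since the H3K27me3 peaks under bivalent peaks were longer. The gap was also there at matched strength. For peaks under 1 kb the shares found were 59.5% and 77.0% at −log10 q under 2, 59.6% and 81.8% from 2 to 3, 57.1% and 90.1% from 3 to 5, and 83.3% and 97.0% from 5 to 10. It was there at gene starts, with 64.2% (88 of 137) and 84.1% (361 of 429) of peaks under 1 kb. Among H3K27me3 peaks under 2 kb, the share found was 83.6% where the H3K4me3 peak had −log10 q under 10, 78.7% from 10 to 20, 72.8% from 20 to 40 and 56.5% at 40 and over. The H3K27me3 peaks differed over these bins too, with a median length of 1005.5 bp in the first and 769.5 bp in the last and a median −log10 q of 4.26 and 3.73.

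**Figure D4:**
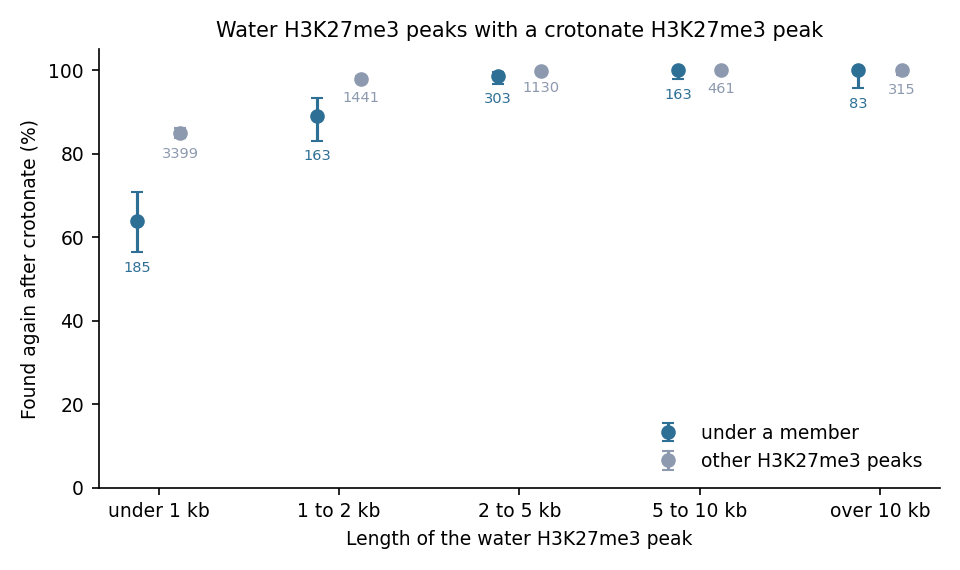
Share of water H3K27me3 peaks that overlapped an H3K27me3 peak after crotonate (y axis, percent), by length in water (x axis), under a bivalent H3K4me3 peak and elsewhere. Bars are exact 95% intervals and numbers are peaks; the classes differ most under 1 kb, at 63.8% and 84.9%, and meet at 100% from 5 kb on.

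The local background of the peak caller differed between these classes. Read from the authors' fold enrichment and given in multiples of the lowest background of the list, it had a median of 1.97 in the water H3K27me3 list at short peaks under bivalent peaks and 1.15 at the other short ones. Within the bivalent class it was lower where no H3K27me3 was found after crotonate, with a median of 1.35, than where it was found, with 2.03. Within each of 5 bins of this water background the bivalent class was found less often, though the lower bins held few bivalent peaks. In the lowest it was 50.0% (9 of 18, 26.0 to 74.0) against 79.1%. The second had 57.1% (8 of 14, 28.9 to 82.3) against 76.4%, with intervals that overlap. In the middle bin the shares were 42.4% (14 of 33, 25.5 to 60.8) and 85.5%, and in the highest 78.0% (64 of 82, 67.5 to 86.4) and 95.5%. In the crotonate H3K4me3 list, a different library, the background at the summit had a median of 2.88 at 58 bivalent peaks that had short H3K27me3 in water and none after crotonate, and 1.5 at 108 that had it with both. The part of either background in the absence of H3K27me3 was not tested.

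Edges of H3K27me3 moved outward in general. At 194 bivalent peaks that crossed an edge in water and paired 1 to 1, the edge inside H3K4me3 lay a median of 18.5 bp farther out after crotonate, with 52.6% moved outward (45.3 to 59.8), and the opposite edge of the same domain 143.5 bp, with 63.9% (56.7 to 70.7). The 6866 edges of other H3K27me3 peaks moved outward by 205.5 bp. The rule picks edges that reach H3K4me3 in water, and at 39 H3K27me3 peaks that ended less than 1 kb short of an H3K4me3 peak the medians were 407 bp for the edge that faced it and 322 bp for the other. There the opposite edge moved farther out than the facing edge in 17 of 39 (43.6%, 27.8 to 60.4), against 122 of 194 (62.9%, 55.7 to 69.7) at the bivalent peaks. Of 85 H3K4me3 peaks that lay less than 1 kb from H3K27me3 in water without touching it, 40 were on H3K27me3 after crotonate (47.1%, 36.1 to 58.2), against 144 of 12223 farther away (1.18%).

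The bivalent peaks without H3K27me3 after crotonate included several with long or strong domains in water. At Rictor, which encodes a subunit of the mTORC2 kinase complex, a domain of 5.71 kb covered 17.2% of the H3K4me3 peak in water, and at Gli1, the hedgehog effector gene, one of 2.67 kb covered 93.1%. Both domains were still called after crotonate but stopped short of the H3K4me3 peak, which at Gli1 measured 3.46 kb after crotonate and 0.991 kb in water. The same held at the adenylyl cyclase gene Adcy5, the calcium channel subunit gene Cacnb3, Dennd11 and Jazf1, and inside Gse1. At Ndnf, encoding a secreted neurotrophic factor, the 2.24 kb peak that covered 93.5% of H3K4me3 in water had no counterpart, and the H3K4me3 peak measured 2217 bp after crotonate and 1812 bp in water. Npr3, the clearance receptor gene of natriuretic peptides, and Zfpm1, the gene of a GATA cofactor, had lost peaks of 1.19 and 1.15 kb. The peak of Mycn enclosed 2.05 kb of H3K27me3 in water and none after crotonate, while its H3K4me3 measured 4.79 kb after crotonate and 4.27 kb in water.

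The strongest bivalent peaks by both marks all crossed a domain edge. Scrt1, a neuronal zinc finger repressor gene, had H3K4me3 of 4.64 kb after crotonate and 3.39 kb in water, of which H3K27me3 covered 30.4% and 29.2%. At Pcgf1, a subunit gene of a variant PRC1, the covered shares were 68.5% after crotonate and 69.1% in water, on a domain of 20.1 and 18.6 kb. Igf1r, the receptor gene for insulin-like growth factor, had 12.5% and 11.1%. Coverage at Rsrc1, which encodes a splicing factor, was 48.8% after crotonate and 72.8% in water. It came from a peak of 0.420 kb after crotonate and from a domain of 26.1 kb in water. Whether that domain persisted beside the H3K4me3 peak after crotonate is not given here. No H3K27me3 covered the H3K4me3 peak after crotonate among peaks with a fold enrichment of at least 5. The same threshold left none at Ezr, which links actin to the membrane, where coverage was 29.6% after crotonate and 61.7% in water. Rgs9bp with Ankrd27, E030030I06Rik, Rbpms2, Wrap73, Ccsap, Foxa3 with Sympk, and Bahd1 made up the rest of the 12, with coverage between 9.27% and 99.9% after crotonate and between 6.03% and 94.6% in water.

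At protein-coding genes, 731 of 21887 (3.34%) had a bivalent peak within 2 kb of an annotated start. After crotonate 677 of them carried both marks in that window (92.6%, 90.5 to 94.4), 54 carried H3K4me3 alone (7.39%, 5.60 to 9.53) and 0 carried H3K27me3 alone, which allows up to 0.410% (3 of 731). This measure is looser than the rule in water: each mark had only to touch the window, and the marks need not overlap. Adcy5 was counted with both marks although H3K27me3 covered 0% of its bivalent peak after crotonate. Of the 54, 45 had H3K27me3 in the same window in water, and in the other 9 the bivalent peak entered the window but its H3K27me3 did not. Both marks were found at 82.4% of genes with lists of equal length. Bivalent genes made up 37.6% of the 1916 genes with H3K27me3 in water and 6.13% of the 11927 with H3K4me3. The 45 included the receptor tyrosine kinase gene Erbb2, the Wnt receptor gene Fzd6 and antagonist gene Frzb, and the transcription regulator genes Lmo1 and Nfatc1, which were picked after their values were seen. Gene lists were then followed by role, with the share over all genes, 3.34%, beside them. They were chosen with results of these data known and the rule used the same lists of peaks, so their counts are a description.

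Among transcription factor genes, H3K27me3 without H3K4me3 was more frequent than a bivalent peak. In 12 families, 37 of 263 genes had one and 129 carried H3K27me3 with no H3K4me3. In the 6 homeobox and paired box families the numbers were 15 and 83 of 113. Of the 129, 39 were Hox genes. The list of Krueppel-like, Zic, Gli and Egr genes went the other way, with 5 bivalent genes and 0 with H3K27me3 and no H3K4me3. Over all 1916 genes with H3K27me3 in water, 37.6% had a bivalent peak. None of 39 Hox genes and none of 9 Pax genes had a bivalent peak. The forebrain set of Dlx, Emx, Otx and Gsx genes had 4 of 12. At Dlx1 the H3K4me3 peak measured 2.09 kb after crotonate and 0.735 kb in water, and at Dlx2, its neighbour in the same domain, 1.69 and 1.45 kb, in H3K27me3 of 24.2 kb after crotonate and 22.5 kb in water. Otx2, a forebrain and midbrain regulator gene, had the largest width ratio of the 4, with H3K4me3 of 2.36 kb after crotonate and 0.406 kb in water. Gsx1, a ventral progenitor factor gene, had H3K4me3 of 4.71 kb after crotonate and 4.27 kb in water, with 17.7% and 11.4% of the water peak under H3K27me3. The list of Nkx genes with Six4 and its relatives had 5 of 20, LIM homeobox genes 2 of 12, POU and Irx genes 4 of 21, Krueppel-like, Zic, Gli and Egr genes 5 of 29 and Sox genes 1 of 19.

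Of 36 proneural and related bHLH genes, 5 had a bivalent peak. Neurog2, which drives cortical neurogenesis, had H3K4me3 of 2.16 kb after crotonate and 1.29 kb in water, wholly under a domain of 23.9 kb after crotonate and 24.3 kb in water. Bhlhe22, a factor of cortical neuron identity, had H3K4me3 of 1930 bp after crotonate and 1097 bp in water, also wholly covered. Hey2, a Notch target, kept less cover, with 62.8% of its peak under H3K27me3 after crotonate and 100% in water, and Id4, an inhibitor of bHLH factors, had 53.0% and 27.6%. The cover at Id4 rested on H3K27me3 below a fold enrichment of 5, as did that at Gsx1 and Klf4. Of 16 T-box genes, 3 had one, among them Eomes, with H3K4me3 of 3.30 kb after crotonate and 2.67 kb in water inside 8.69 and 8.07 kb of H3K27me3. Forkhead genes had 7 of 44, of which Foxp1, a factor of cortical and striatal neurons, had H3K4me3 alone after crotonate. GATA genes had 1 of 6: Gata3, a lymphoid and sympathetic factor gene, with H3K4me3 of 0.872 kb after crotonate and 0.292 kb in water, lay in a domain of 38.4 kb after crotonate and 31.2 kb in water. The longest water domain with a bivalent peak, 36.0 kb and 35.5 kb after crotonate, lay in Casz1, a zinc finger gene of retina and heart, and Barhl2 and En2, homeobox genes of neural patterning, followed with Gata3, Rsrc1 and Otx2.

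Among genes of secreted signals and their receptors, Wnt ligands had 5 of 19, the list of BMP, GDF and inhibin genes 7 of 32, and FGF ligands and receptors 7 of 26. Wnt9a, whose promoter is printed above, had H3K4me3 of 2.09 kb after crotonate and 0.959 kb in water, inside 13.6 and 11.3 kb of H3K27me3. Wnt7b, another ligand gene, had 66.2% of its peak covered after crotonate and 100% in water, and Nog, a BMP antagonist gene, 27.2% and 51.5%. Inhbb, which encodes an activin subunit, had none after crotonate and 41.0% in water. Fgf9 had H3K4me3 of 6.41 kb after crotonate, a peak that spanned more than 1 water peak, and 2.15 kb in water, while the peak at Fgfr3, a receptor of ventricular zone cells, held H3K27me3 over 71.6% in water and none after crotonate. Of 11 hedgehog pathway genes 1 had a bivalent peak, Gli1 being counted with the zinc finger genes: Shh, the ligand gene of ventral patterning, with 1 H3K4me3 peak of 3.27 kb after crotonate that spanned 2 bivalent peaks of water, the longer of 1.62 kb, under 10.9 kb of H3K27me3 after crotonate and 10.8 kb in water. Ephrins and Eph receptors had 4 of 22, semaphorins, netrins, slits and receptors 7 of 49, and Notch ligands and receptors 2 of 14.

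Genes of neuronal excitability also had bivalent peaks. Potassium channels had 12 of 93, sodium and calcium channels 8 of 40, and glutamate and GABA receptors 11 of 48. Kcnma1, the large-conductance calcium-activated channel, had H3K4me3 of 2.34 kb after crotonate and 1.91 kb in water, wholly covered with both. At Cacna2d3, a calcium channel subunit gene, the H3K27me3 peak measured 10.7 kb after crotonate and 5.07 kb in water. Grin2a, the NMDA receptor subunit gene of mature neurons, held a small H3K27me3 peak of 1.26 kb after crotonate and 0.769 kb in water within its H3K4me3, and Gabra2, a GABA receptor subunit gene, one of 1.06 and 0.597 kb at an edge. The crotonate H3K27me3 at Cacna2d3 and Grin2a had fold enrichments below 5. The potassium channel gene Kcnn3 and both bivalent protocadherin genes, Pcdh10 and Pcdh17 (2 of 69), carried H3K4me3 alone at the start after crotonate. At Pcdh17 the window held no H3K27me3 in water either, and H3K27me3 covered 12.3% of the peak after crotonate and 18.4% in water.

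Polycomb genes themselves were in the class: 5 of 23, namely Pcgf1, Pcgf2, Pcgf5, Bmi1 and Cbx2, all genes of PRC1 subunits. Cbx2 had H3K4me3 of 2.35 kb after crotonate and 2.61 kb in water, with 17.5% and 17.4% of it covered, after crotonate by H3K27me3 below a fold enrichment of 5. At Pcgf5 a 0.532 kb H3K27me3 peak covered 4.31% in water and no H3K27me3 reached the peak after crotonate. Bmi1 had 54.8% and 60.4%. Cdkn2a, the cell cycle inhibitor locus that PRC1 with Bmi1 is known to repress, had 51.4% after crotonate and 39.1% in water, on a domain of 9.53 and 9.29 kb. No bivalent peak lay at any of 72 ribosomal protein genes or 12 housekeeping genes.

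**Figure D5:**
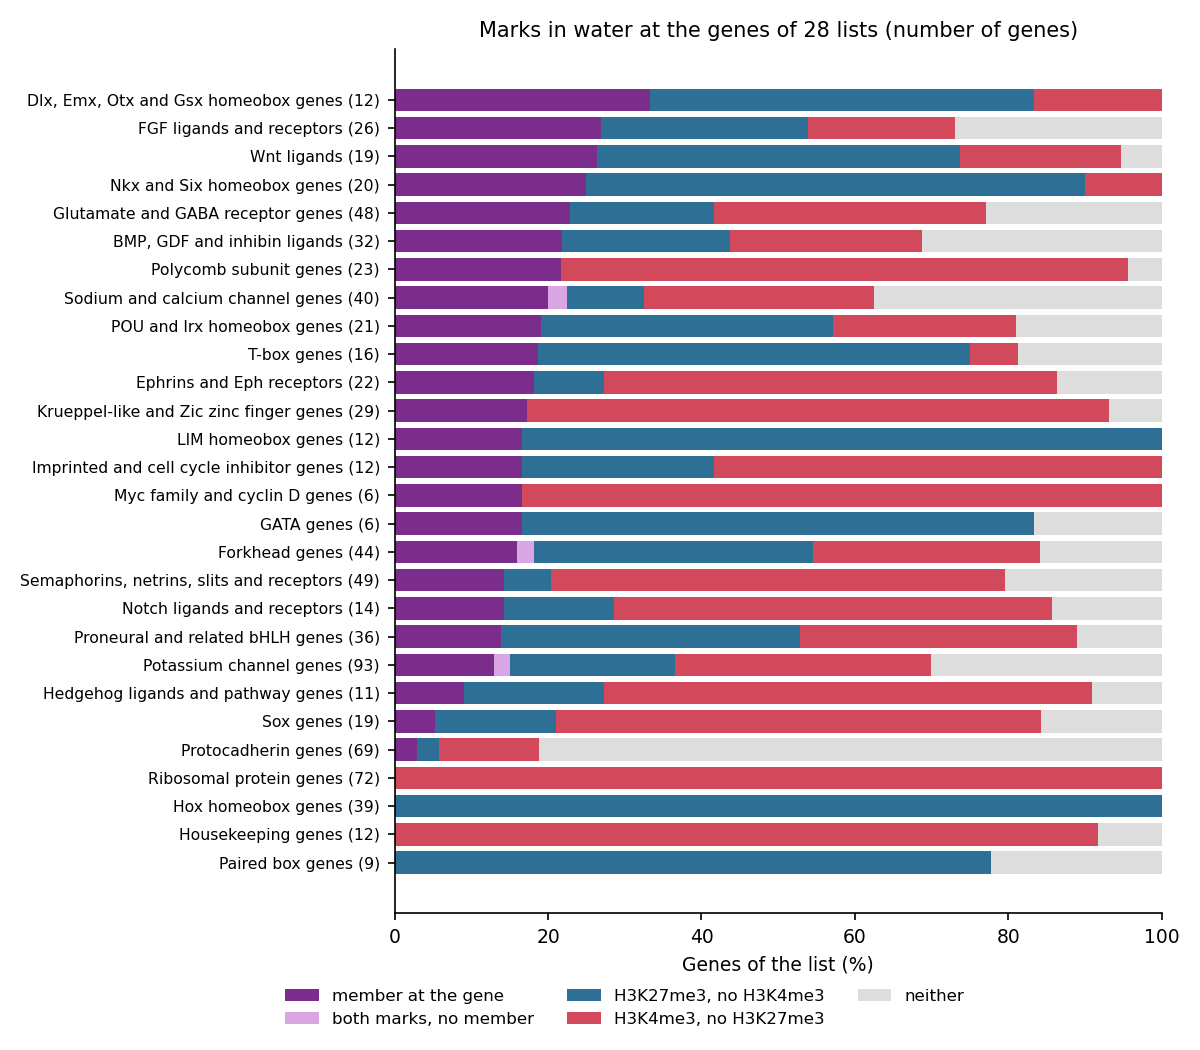
Genes of 28 lists by their marks in water (x axis, percent of the list; number of genes in brackets on the y axis). The share with a bivalent peak runs from 33.3% of Dlx, Emx, Otx and Gsx genes to 0 of 39 Hox, 9 paired box, 12 housekeeping and 72 ribosomal protein genes; Hox genes carry H3K27me3 without H3K4me3, and ribosomal protein genes H3K4me3 without H3K27me3.

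By position, 738 bivalent peaks (81.1%, 78.4 to 83.6) lay within 2 kb of a protein-coding start, against 86.3% of other H3K4me3 peaks. A further 110 (12.1%) lay inside a gene and 62 (6.81%) between genes. H3K27me3 was absent after crotonate from 74 of the 738 (10.0%), 11 of the 110 (10.0%) and 10 of the 62 (16.1%, 8.02 to 27.7), so the places did not differ beyond counting error.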

How the data were processed

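The authors' deposited lists hold 1 line per peak and were called per library. Per the file headers, each gives a pileup signal at the summit, significance as −log10 of the p-value and of the q-value, and a linear fold enrichment ratio over local background. Bowtie2 2.4.1, SAMtools 1.10, Picard 2.22.0, MACS2 2.2.7.1 and GRCm38 are named in the submitters' processing notes; no source used here gives their settings or the background library. These values describe or rank peaks within 1 list. Local background was taken as (pileup + 1) / fold enrichment − 1, a reading the headers do not state.

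Overlaps of at least 1 bp were computed with pandas 2.3.3, numpy 2.4.6 and scipy 1.17.1 under Python 3.11.15. They were tested on 1200 simulated peaks (0 wrong) and checked with bedtools 2.31.1, which also gave 910. Figures were drawn with matplotlib 3.10.9. Width and edge comparisons used peaks that overlap exactly 1 peak of the other list and the reverse. Genes and promoter sequences came from RefSeq tables of GRCm38.p6. Of 21887 protein-coding genes, 17492 had listed starts, and for the other 4395 both annotated ends were used, which can add 3′ ends. A share of 0 is given with the limit that 3 counts allow.

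Members, gene lists and bins were chosen with earlier results of these data known. The genes named follow a rule: the 12 strongest by both marks, the 12 strongest that lost H3K27me3, every peak that lost H3K4me3, the 6 largest and 6 smallest width ratios, up to 4 per list, the 6 longest domains, and 8 set genes, of which Rbfox3 had no bivalent peak. Not all genes so named are printed. Alternatives were other rules of overlap, a fold enrichment of at least 5, lists of equal length by −log10 q, and windows of 1 and 5 kb. No column of another sample was present. The 2 IgG samples were not analysed here.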

Additional observations from a re-analysis of the deposited data

How the results depend on the processing

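With 1 library per mark and treatment no replicate could be left out. No paired analysis was possible because each group has 1 library and the results come from no test. The numbers of bivalent peaks and of genes with one stayed within 1.5 times the reported counts under all alternatives run, from 622 to 910 peaks and from 507 to 786 genes. With at least 50% of the H3K4me3 peak required under H3K27me3, the wholly covered share was 66.3% after crotonate and 69.8% in water, the width ratio 1.57, and H3K27me3 was found after crotonate at 94.7% of peaks and both marks at 95.8% of genes. With the H3K4me3 summit required inside H3K27me3, the same values were 64.8%, 68.7%, 1.56, 93.9% and 95.5%. With a fold enrichment of at least 5, the wholly covered share in water was 60.5%, H3K4me3 was found at 97.6% and H3K27me3 at 85.4% of peaks, and both marks at 85.6% of genes. With lists of equal length these last 3 were 96.3%, 82.2% and 82.4%. With a window of 1 kb both marks were found at 90.0% of genes. Equal lengths cut only the crotonate lists and left the water lists whole. The fold enrichment threshold removed water peaks as well, so the set of bivalent peaks also changed, to 622. The parts of these 2 changes in the lower shares under the threshold were not separated. The gap at H3K27me3 peaks under 1 kb kept its direction under all 4 alternatives for it, chosen after seeing the data: 45.0% under bivalent peaks and 75.2% elsewhere at a fold enrichment of at least 5, 43.2% and 66.2% with equal lengths, 64.8% and 84.2% with 50% cover, and 68.4% and 84.2% by the summit. Of the named peaks, 14 lost their cover after crotonate at a fold enrichment of at least 5, and 8 with equal lengths. Unstated depth limits all widths and absences, since a peak missing from a list may lie just under its threshold.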

Other observations

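Of 172 bivalent peaks away from protein-coding starts, 23 lay within 2 kb of the start of a long non-coding RNA gene. The same count for other H3K4me3 peaks is not given here, nor is that for the miRNA hairpins below. Tunar, whose RNA is needed for neural commitment of embryonic stem cells, had H3K4me3 of 1.16 kb after crotonate and 0.590 kb in water, wholly under H3K27me3 with both. Firre, an X-linked gene whose RNA organises nuclear chromatin, had a peak covered over 100% after crotonate and 70.2% in water. The peak at Sox1ot, which overlaps the progenitor gene Sox1, was covered over 41.9% in water and held no H3K27me3 after crotonate, and the same was true at 6530402F18Rik, with 34.7% in water.

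Of 1005 listed miRNA hairpins, 3 lay wholly inside bivalent peaks, those of Mir137, Mir1199 and Mir1900, and 3 more were touched at an end. Mir137 encodes a miRNA known to regulate differentiation of neural progenitors, and its 3p product, at chr3:118433901-118433923 on the plus strand of GRCm38.p6, is printed from RefSeq with its seed (bases 2 to 8) in capitals. The H3K4me3 peak over it measured 0.718 kb after crotonate and 0.434 kb in water. A 0.411 kb H3K27me3 peak covered 46.3% of it in water and none was called after crotonate.
mmu-miR-137-3p: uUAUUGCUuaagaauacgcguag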
